A study of Sus scrofa with 3 samples.

Results

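ICAM1, ICAM2, VCAM1 and MADCAM1 are the cell surface molecules of the immunoglobulin family by which the vessel wall holds passing leukocytes. They were taken by gene symbol from the platform annotation of a porcine Affymetrix array, which reads a transcript through a set of short probes toward its 3' end. Each gene had 1 probe set, so the 4 genes are 4 of 6765 named genes and 4 of 23935 probe sets. The set was picked from results on these arrays, in that its log2 ratios against sham were known, and its values are therefore a description with no test.

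The data are 3 arrays of whole lung from minipigs kept in specific pathogen-free conditions. The operated lung is the left lung of a minipig in which the left pulmonary artery was transiently occluded and the bronchus left untouched, so that the lung was ventilated during ischemia. The non-operated lung is a right lung, also from a minipig with ischemia-reperfusion, and the sham lung is that of a sham-operated minipig. With 1 array in each group there are no replicates and no p-values, and this number sets the limit of precision. The labels used here do not say whether the operated and non-operated lungs came from 1 animal, how long ischemia and reperfusion lasted, the animals' age or sex, or whether RNA was pooled. All values against sham rest on the same sham array.

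Leukocytes leave the blood in steps: selectins slow them, integrins on the leukocyte then bind immunoglobulin-type molecules on the endothelium, and the cells pass between or through endothelial cells. ICAM1 and ICAM2 are bound by the leukocyte integrin of ITGAL and ITGB2, and ICAM1 also by that of ITGAM and ITGB2. VCAM1 is bound by the integrin of ITGA4 and ITGB1, and MADCAM1, the mucosal addressin, by that of ITGA4 and ITGB7. In cultured human endothelium, tumour necrosis factor and interleukin 1 raise ICAM1 and VCAM1 through NF-kB, whereas ICAM2 is present at rest. At least ICAM1 and VCAM1 are not made by endothelium alone. ICAM1 is also found on alveolar type 1 epithelium and macrophages, and VCAM1 on follicular dendritic cells and lymphoid stroma. MADCAM1 is found mostly on venules of gut lymphoid tissue.

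The set divided into a pair with higher signals and a pair with lower signals in the operated and non-operated lungs than in sham. The operated and non-operated lungs were close to each other. ICAM1 and ICAM2 were 2.68-fold and 2.99-fold higher in the operated lung than in sham. VCAM1 was 3.10-fold lower in the operated lung, and MADCAM1 was at least 2.14-fold lower. Folds are ratios of the deposited signals, and from 2-fold on, or 1 on the log2 scale, a gene counts as higher or lower. A value at or below the floor, the array's median signal, was set to the floor, so that a ratio with a value there is a bound. By this rule 2 of 4 members were higher, against 8.65% of the 5097 genes counted in that comparison, and 2 of 4 were lower, against 8.79%. In the non-operated lung the same 2 members were higher and the same 2 lower, where 8.96% and 8.55% of 5113 genes were. These shares stand beside the counts as background and were not used as a test, since the members were chosen with these ratios known. Of the 2 lower members, MADCAM1 was counted only through its signal in sham, so its place in the count depends on the floor.

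ICAM1, the ligand for the ITGAL and ITGB2 integrin and a gene that cytokines induce on endothelium, had a log2 signal of 12.28 in the operated lung, 12.33 in the non-operated lung and 10.85 in sham. On the linear scale these are 4968, 5158 and 1852 units in the same order, each far above the floors of 158.7, 158.6 and 160.7. The operated and non-operated lungs were both high and sham was low. The log2 ratio was 1.42 for the operated lung against sham and 1.48 for the non-operated lung against sham. A higher ratio than that of ICAM1 was seen for 219 genes, or 4.30%, in the operated lung and for 202 genes, or 3.95%, in the non-operated lung.

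ICAM2, the ligand present on resting endothelium, had a log2 signal of 10.46 in the operated lung, 10.35 in the non-operated lung and 8.88 in sham. Its linear signal of 1408 units in the operated lung and 1301 in the non-operated lung compares with 470.2 in sham, which is 2.93 times the floor of that array. Again the operated and non-operated lungs both lay above sham. The log2 ratio was 1.58 in the operated and 1.47 in the non-operated lung. In the non-operated lung the ratios of ICAM1 and ICAM2 differed by 0.01 on the log2 scale, and in the operated lung ICAM1 lay 0.16 below ICAM2.

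VCAM1, the ligand for the ITGA4 and ITGB1 integrin, ran the other way. Its log2 signal was 11.28 in the operated lung, 11.24 in the non-operated lung and 12.91 in sham, or 2482, 2422 and 7706 linear units in the same order. Sham was the high array and all 3 values were at least 15.3 times the floor. The log2 ratio against sham was -1.63 in the operated and -1.67 in the non-operated lung, lower than in all but 135 genes (2.65%) and 119 genes (2.33%). The log2 ratio of ICAM1 stood 3.06 above that of VCAM1 in the operated lung and 3.15 above it in the non-operated lung, which is an 8.33-fold and an 8.86-fold shift in the balance of the 2 signals. A scaling that moves a whole array by a constant leaves that difference as it is.

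MADCAM1 was measured above the floor in sham alone. The log2 signal was 2.75 in the operated lung, 5.51 in the non-operated lung and 8.41 in sham, where the floors were 7.31, 7.31 and 7.33 in the same order. The sham signal of 339.3 units is 2.11 times its floor. The bound that the floor allows, at least 2.14-fold lower in the operated and in the non-operated lung, is therefore set almost wholly by the floor. Without a floor the log2 differences would be -5.66 for the operated and -2.89 for the non-operated lung. No ratio is given between the operated and non-operated lungs, because both values lie below the floor.

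**Figure D1:**
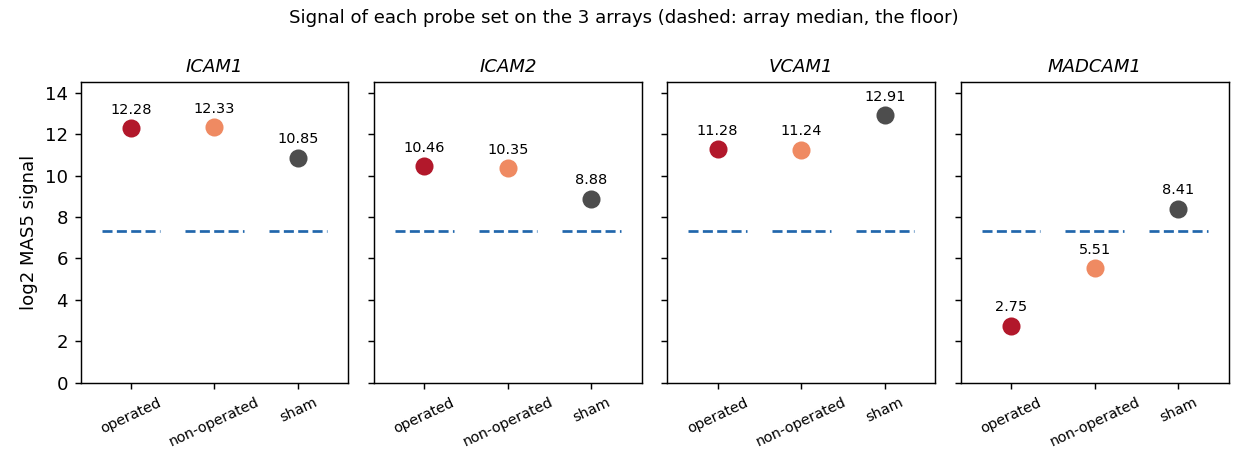
Log2 MAS5 signal (vertical axis) of the single probe set of ICAM1, ICAM2, VCAM1 and MADCAM1 on the operated, non-operated and sham arrays, 1 point per array, with each array's floor dashed. ICAM1 and ICAM2 are higher on the operated and non-operated arrays than on sham, and VCAM1 is lower. MADCAM1 lies above the floor only in sham, at 8.41.

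Between the operated and non-operated lung the members differed little. The log2 ratio was -0.05 for ICAM1, 0.11 for ICAM2 and 0.04 for VCAM1, or 1.04-fold, 1.08-fold and 1.02-fold in size. Among the 4944 genes counted, 0.0607% were at least 2-fold higher in the operated lung and 0.182% at least 2-fold lower, and 0 of the 3 members counted were among them. The median size of the log2 ratio over the 4698 genes above the floor on both arrays was 0.15, and 59.7% of them had a larger size than ICAM2. Whether the 2 lungs are of 1 animal is not given, so this closeness may be within an animal or between animals.

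The only internal measure of error is the difference between probe sets of a gene, and none of the 4 members has a second probe set. Over 801 genes with at least 2 probe sets above the floor, the log2 ratios of the brightest pair for the operated lung against sham differed by a median of 0.29, and by up to 1.06 in 95% of genes. For the non-operated lung against sham, the corresponding values over 783 genes were 0.31 and 1.09. This spread covers different probes on the same arrays and not the difference between animals, so it does not show whether the members' ratios exceed the spread between animals.

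**Figure D2:**
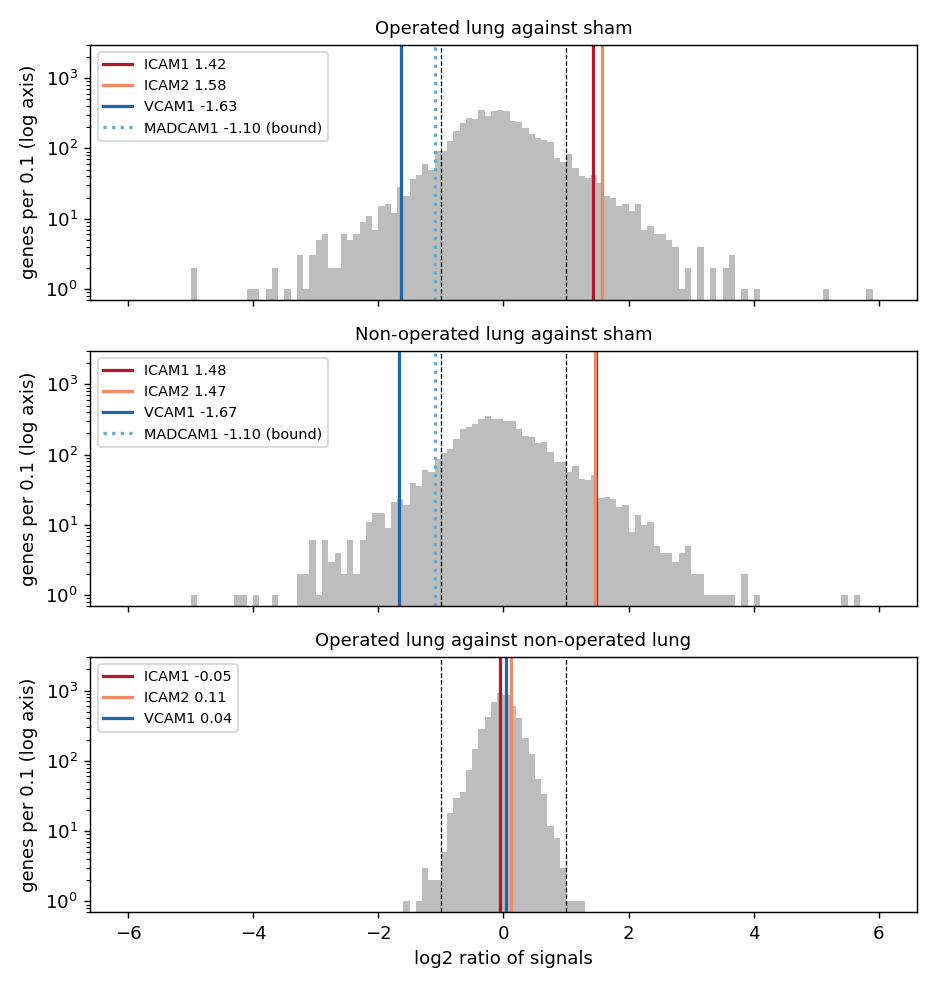
Number of genes (log axis) by log2 ratio in each comparison, in grey, with coloured lines for the members and dashed lines at 2-fold in either direction. Against sham, ICAM1 and ICAM2 lie between 1.42 and 1.58 and VCAM1 at -1.63 and -1.67, while all 3 lie within 0.12 of 0 between the operated and non-operated lung.

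Of the integrins that bind these molecules, the subunits above the floor had somewhat higher signals in the operated and non-operated lungs, within 2-fold. ITGB2, the beta chain of the leukocyte integrins that bind ICAM1 and ICAM2, had log2 signals of 10.99 in the operated lung, 10.96 in the non-operated lung and 10.21 in sham, a log2 ratio against sham of 0.78 for the operated and 0.75 for the non-operated lung. ITGB1, the beta chain of the VCAM1 receptor and of many matrix receptors, was at 13.39 in the operated lung, 13.44 in the non-operated lung and 12.59 in sham, a log2 ratio of 0.80 for the operated and 0.85 for the non-operated lung. ITGAM and ITGB7 were at or below the floor on all 3 arrays. ITGAL and ITGA4 have no singly named probe set here. Of the list of 12 integrins and partners, 3 were counted in either comparison against sham and 0 were beyond 2-fold, with a median of 0.78 for the operated lung, beside -0.11 over all genes, and of 0.75 for the non-operated lung, beside -0.10. The other gene counted, TLN1, had log2 ratios of -0.39 in the operated and 0.18 in the non-operated lung. Under alternatives other than centring on endothelial markers that median went down to 0.13 in the operated and 0.16 in the non-operated lung.

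Of the selectins, SELP, which platelets and endothelium store in granules, had log2 signals of 8.20 in the operated lung, 7.80 in the non-operated lung and 6.75 in sham, the last below the floor. SELP was therefore at least 1.83-fold higher in the operated and at least 1.38-fold higher in the non-operated lung. SELE, which cytokines induce together with ICAM1 and VCAM1 on human endothelium, lay below the floor on all 3 arrays, at 5.83 in the operated lung, 6.88 in the non-operated lung and 4.96 in sham.

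The list of other adhesion and transmigration molecules leaned the same way as ICAM1 and ICAM2. In either lung 6 of 12 genes were at least 2-fold higher than in sham and 0 were lower, with a median log2 ratio of 0.98 in the operated and 0.89 in the non-operated lung. CDH5, the cadherin of endothelial junctions, was 3.48-fold higher in the operated and 3.84-fold higher in the non-operated lung. MCAM, an adhesion molecule of endothelium and smooth muscle, was 3.35-fold higher in the operated and 4.99-fold higher in the non-operated lung. CD9 and CD151 are tetraspanins, which in human endothelium gather ICAM1 and VCAM1 in patches of membrane. CD9 was 3.03-fold higher in the operated and 3.25-fold higher in the non-operated lung. CD151 was 3.12-fold higher in the operated and 4.01-fold higher in the non-operated lung. CD81, another tetraspanin of the list, had log2 ratios of -0.24 in the operated and 0.04 in the non-operated lung. Of the 6 higher genes, PECAM1, CDH5 and ESAM are also on the list of endothelial markers, so the counts of these lists overlap.

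Among 12 cytoplasmic and membrane partners of ICAM1 and VCAM1, 1 was at least 2-fold higher in the operated lung and 2 in the non-operated lung, and 0 were lower. The caveolin gene CAV1, whose product forms endothelial and alveolar type 1 caveolae, was 2.35-fold higher in the operated and 2.27-fold higher in the non-operated lung. FLNA, a filamin that links ICAM1 to actin, was 2.28-fold higher in the non-operated lung and had a log2 ratio of 0.76 in the operated lung. The list median was 0.19 in the operated and 0.34 in the non-operated lung. Over all genes counted, 8.65% were at least 2-fold higher in the operated and 8.96% in the non-operated lung. The count of 1 of 12 in the operated lung is near that share. At least 2-fold lower were 8.79% and 8.55%. The same shares are the background for the counts of every list.

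Genes of the NF-kB pathway and of the cytokines that act on these molecules were mixed. Their counts stand beside 8.65% of all genes higher in the operated and 8.96% in the non-operated lung. Of the list of NF-kB genes and transcription factors that act with them on endothelium, 6 were counted, of which 2 exceeded sham by at least 2-fold in either lung and 0 were lower, with a median of 0.38 in the operated and 0.45 in the non-operated lung. Those 2 were the transcription factors IRF1 and KLF4, and neither is a subunit, inhibitor or activator of NF-kB. IRF1, an interferon regulatory factor that binds the VCAM1 promoter in human endothelium, was 2.23-fold higher in the operated and 2.61-fold higher in the non-operated lung. KLF4, which in human endothelium lowers VCAM1, was 2.26-fold higher in the operated and 3.79-fold higher in the non-operated lung. NFKBIA, the NF-kB inhibitor that NF-kB itself induces, had a log2 ratio of 0.75 in the operated and 0.72 in the non-operated lung, within 2-fold. The other NF-kB genes counted were NFKBIB, IKBKG and TNIP1, at -0.49 to 0.01 in the operated and -0.10 to 0.18 in the non-operated lung. TNFAIP3 has no singly named probe set here, and NFKB1 and KLF2 were below the floor on all 3 arrays.

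Of the cytokine and receptor list, 2 of 10 genes counted were higher and 1 was lower in the operated lung. In the non-operated lung 1 of 11 was higher and 2 were lower. Medians were 0.05 in the operated and 0.13 in the non-operated lung. Shares over all genes were 8.65% higher and 8.79% lower in the operated lung, and 8.96% and 8.55% in the non-operated lung. The endotoxin receptor TLR4 was 3.14-fold higher in the operated and 2.30-fold higher in the non-operated lung by its brightest probe set. Its other probe sets above the floor in both lungs gave log2 differences from sham of 0.99 to 1.45 in the operated lung. In the non-operated lung these were 0.39 to 1.08. TNFRSF1A, the main receptor for tumour necrosis factor, was 2.07-fold higher in the operated lung and had a log2 ratio of 0.98 in the non-operated lung. LTB, which encodes lymphotoxin beta and in mice maintains MADCAM1 and VCAM1 in lymphoid tissue, was 13.1-fold lower in the operated and 12.7-fold lower in the non-operated lung. CD40 was 2.49-fold lower in the non-operated lung and had a log2 ratio of -0.85 in the operated lung by its brightest probe set. Its other probe sets gave -0.95 and -1.55 in the operated and -1.56 and -1.94 in the non-operated lung.

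A list of chemokines and adhesion cofactors, drawn up around the response of endothelium to cytokines, had genes on either side. Whole lung does not show which cells made these transcripts, so they are not read as a response of endothelium. The background over all genes was 8.65% higher and 8.79% lower in the operated lung, and 8.96% and 8.55% in the non-operated lung. In the operated lung 3 of 9 were at least 2-fold higher and 2 lower, and in the non-operated lung 2 were higher and 2 lower, with medians of -0.12 in the operated and 0.23 in the non-operated lung. The inducible cyclooxygenase PTGS2 was at least 6.01-fold higher in the operated and at least 7.40-fold higher in the non-operated lung, and the chemokine CCL4 was 4.04-fold higher in the operated and 3.998-fold higher in the non-operated lung. The monocyte chemokine CCL2 was on the side of VCAM1, 3.95-fold lower in the operated and 3.30-fold lower in the non-operated lung. CXCL12, the ligand of CXCR4, was 4.15-fold lower in the operated and 3.71-fold lower in the non-operated lung by its brighter probe set, while its other probe set gave log2 ratios of -0.13 in the operated and -1.01 in the non-operated lung.

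Whole lung holds many cell types, and in such samples fewer cells of a type and less RNA per cell cannot be told apart. The surfactant gene SFTPC, which defines alveolar type 2 cells, was near the top of each array, at log2 signals of 14.52 in the operated lung, 14.56 in the non-operated lung and 14.44 in sham. SFTPB, another surfactant gene of these cells, was at 10.76 in the operated lung, 9.63 in the non-operated lung and 9.53 in sham, a log2 ratio against sham of 1.23 for the operated and 0.11 for the non-operated lung. SFTPA1, a further surfactant gene, was at 12.23 in the operated lung, 11.97 in the non-operated lung and 12.13 in sham. Its log2 ratio against sham was 0.10 for the operated and -0.16 for the non-operated lung. These surfactant genes were chosen after their values were seen. Endothelial markers lay on the side of ICAM1 and ICAM2. Of 17 on the array 13 were counted, of which 12 were at least 2-fold higher in the operated and 11 in the non-operated lung, and 0 were lower. Their summed linear signal was 35634 units in the operated lung, 39727 in the non-operated lung and 12569 in sham. The anticoagulant receptor THBD was 3.95-fold higher in the operated and 5.95-fold higher in the non-operated lung, and the sphingosine phosphate receptor S1PR1 3.90-fold higher in the operated and 3.72-fold higher in the non-operated lung. TIE1, KDR, FLT1 and ENG were at or below the floor on all 3 arrays.

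The endothelial list had a median log2 ratio of 1.53 in the operated and 1.55 in the non-operated lung. ICAM1 was 0.10 below that median in the operated and 0.07 below it in the non-operated lung, and ICAM2 was 0.06 above it in the operated and 0.08 below it in the non-operated lung. VCAM1 was 3.16 below it in the operated and 3.22 below it in the non-operated lung. Nearness of ICAM1 and ICAM2 to a list median was not particular to endothelial markers. The neutrophil median was 1.58 in the operated and 1.96 in the non-operated lung. For smooth muscle and pericyte markers the medians were 1.63 and 1.41 in the same order. When each array was centred on the median level of the 12 endothelial markers above the floor on all 3 arrays, the log2 ratio of ICAM1 was -0.20 in the operated and -0.33 in the non-operated lung and that of ICAM2 was -0.04 in the operated and -0.34 in the non-operated lung. VCAM1 was then at -3.25 in the operated and -3.48 in the non-operated lung. That centring took 1.62 off every log2 ratio in the operated and 1.81 in the non-operated lung, which is more than the median ratio of the same 12 markers, 1.55 and 1.57. It moves the median of all genes to -1.73 in the operated lung, which was -0.11 as deposited, and to -1.91 in the non-operated lung, which was -0.10.

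Monocyte and macrophage genes were also higher, as were 3 S100 genes of the neutrophil list. ICAM1 is made by macrophages as well as endothelium. Of 10 monocyte and macrophage markers on the array, 4 of 5 counted were at least 2-fold higher in the operated lung and 4 of 6 in the non-operated lung, with 0 lower. Their summed signal was 21138 units in the operated lung, 20662 in the non-operated lung and 6281 in sham, and the mannose receptor MRC1 was 5.78-fold higher in the operated and 5.44-fold higher in the non-operated lung. CD14, ITGAM, FCGR1A and SIGLEC1 lay at or below the floor on all 3 arrays. Of 4 neutrophil and granule genes counted, S100A8, S100A9 and S100A12 were higher in either lung. The pan-leukocyte gene PTPRC was lower, with log2 ratios of -1.23 in the operated and -1.73 in the non-operated lung. The summed signal over the 6 genes of this list was 7262 units in the operated lung, 8687 in the non-operated lung and 2140 in sham. The granule genes ELANE and LTF were at or below the floor throughout, so the S100 genes alone of this list were higher. The part of these cells in the ICAM1 and ICAM2 signals was not tested.

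Lymphoid genes lay on the side of VCAM1 and MADCAM1. Of 9 follicular dendritic and lymphoid stroma markers on the array 8 were counted. Beyond 2-fold, 6 of these were lower in either lung, while 0 were higher in the operated lung and 1, PDPN, in the non-operated lung. Their median log2 ratio was -1.86 in the operated and -1.48 in the non-operated lung, from which VCAM1 differed by 0.23 in the operated and by -0.18 in the non-operated lung. Their summed signal was 8221 units in the operated lung, 10505 in the non-operated lung and 27366 in sham. CXCL13, the chemokine of B-cell follicles, was 30.0-fold lower in the operated and 19.4-fold lower in the non-operated lung, the lymphoid chemokine CCL19 had log2 ratios of -1.79 in the operated and -2.04 in the non-operated lung, and CLU, which follicular dendritic cells make, was 3.76-fold lower in the operated and 2.84-fold lower in the non-operated lung. IL7 was at or below the floor on all 3 arrays. CR2, FDCSP and FCER2 of this list have no singly named probe set here. The list shares LTB with the cytokine list, and CCL21 and PDPN with the lymphatic list. Its median is therefore not particular to lymphoid stroma.

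Signals of 5 B and plasma cell markers were counted, of which 4 lay beyond 2-fold on the lower side in the operated lung and 5 in the non-operated lung. Their summed signal was 2342 units in the operated lung, 1971 in the non-operated lung and 9817 in sham, and CD79B, a chain of the B-cell receptor complex, was at least 14.98-fold lower in the operated and at least 14.99-fold lower in the non-operated lung. Of 9 T and NK cell markers counted, 4 were lower and 1 was higher in either lung, with a summed signal over 11 genes of 2749 units in the operated lung, 3042 in the non-operated lung and 5543 in sham. The higher gene was GNLY, at least 2.09-fold higher in the operated and at least 3.02-fold higher in the non-operated lung. LCK, among the lower genes, was 3.81-fold lower in the operated and 3.24-fold lower in the non-operated lung. CD4 and PRF1 were at or below the floor on all 3 arrays. No marker of these lists had a value of 0 on any array. The part of lymphoid tissue in the VCAM1 and MADCAM1 signals was not tested.

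Markers of lymphatic vessels and of high endothelial venules were few. Beside them, 8.65% of all genes were higher in the operated and 8.96% in the non-operated lung. Of 4 on the array, 1 was at least 2-fold higher in the operated and 2 in the non-operated lung, and 0 were lower. LYVE1, a hyaluronan receptor of lymphatic endothelium and some macrophages, was 4.56-fold higher in the operated and 3.47-fold higher in the non-operated lung. PDPN, 2.14-fold higher in the non-operated lung, is also on the lymphoid stroma list. The counts are therefore not particular to these vessels. CCL21, a chemokine of lymphatics and high endothelial venules, was above the floor only in sham, as MADCAM1 was, with log2 signals of 4.64 in the operated lung, 7.01 in the non-operated lung and 7.52 in sham. PROX1, FLT4, CHST4 and GLYCAM1 have no singly named probe set here.

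**Figure D3:**
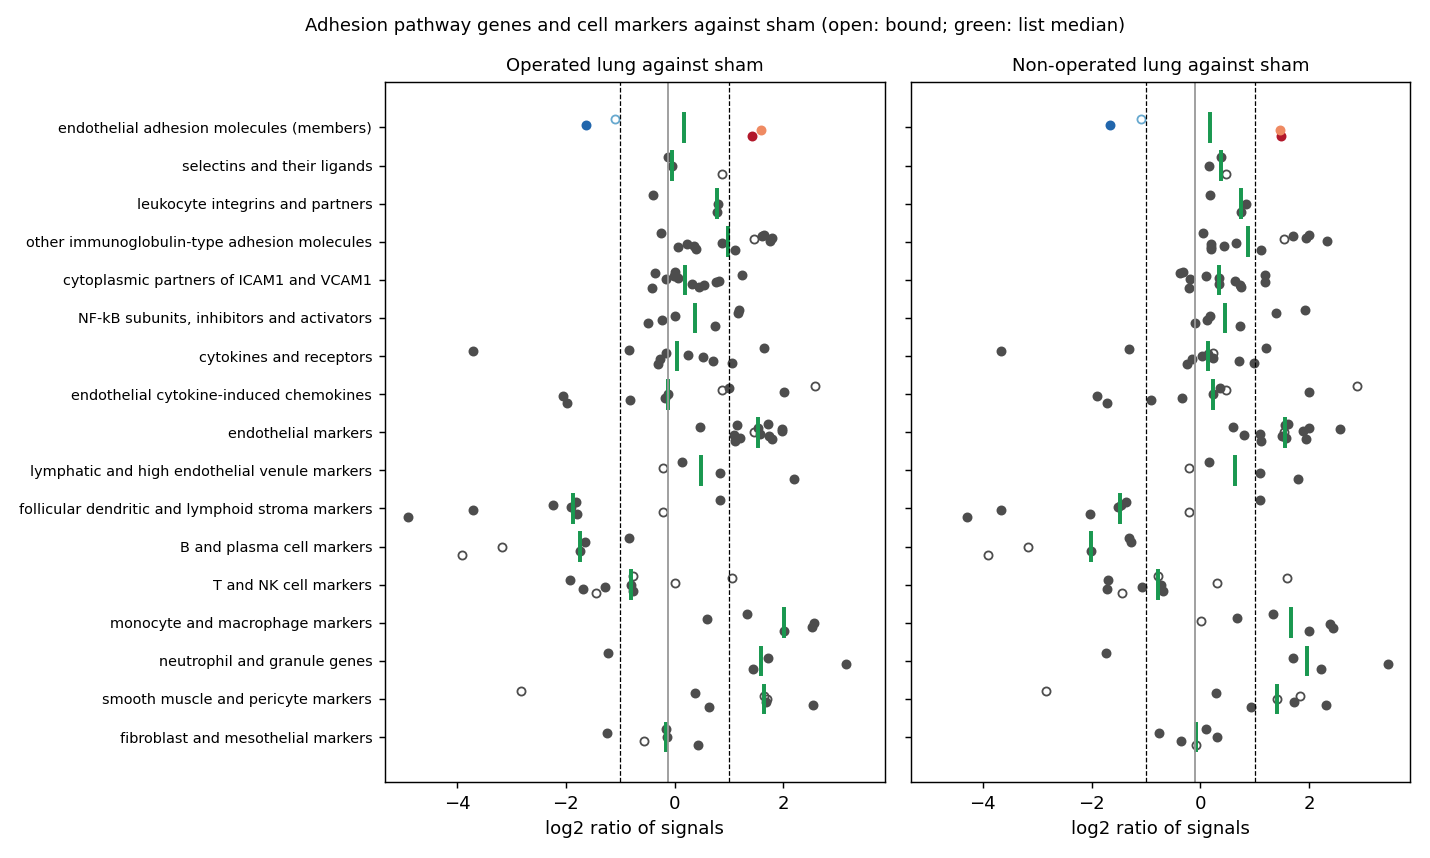
Log2 ratio of signals (horizontal axis) of each counted gene for the members and 16 gene lists, operated lung against sham and non-operated lung against sham, with open points for bounds, a green bar at each list's median, dashed lines at 2-fold and a grey line at the median of all genes. ICAM1 and ICAM2 lie in the range of the endothelial markers, whose medians are 1.53 in the operated and 1.55 in the non-operated lung. In the same order, medians are 1.63 and 1.41 for smooth muscle and 1.58 and 1.96 for neutrophil genes. VCAM1 lies in the range of the lymphoid stroma markers, whose medians are -1.86 in the operated and -1.48 in the non-operated lung. The B and plasma cell median is nearer to VCAM1 in the operated lung, at -1.73, and farther in the non-operated lung. Neither position is particular to 1 list.

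Smooth muscle and fibroblast lists were set beside the members as further residents of the vessel wall. Among all genes, 8.65% were higher and 8.79% lower in the operated lung, and 8.96% and 8.55% in the non-operated lung. Of 7 smooth muscle and pericyte markers counted, 4 were at least 2-fold higher and 1 was lower in either lung, with medians of 1.63 in the operated and 1.41 in the non-operated lung. The actin-binding TAGLN was 3.19-fold higher in the operated and 3.28-fold higher in the non-operated lung, and RGS5, a regulator of G protein signalling in pericytes, was at least 7.11-fold lower in either lung. Of 5 fibroblast and mesothelial genes counted, 1 was lower in the operated lung, the collagen-binding proteoglycan LUM at 2.36-fold, and 0 were beyond 2-fold in the non-operated lung.

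The genes whose pair of ratios against sham lay nearest to each member were found over the 3 arrays by Euclidean distance, among 4386 genes above the floor on all 3. The 5 nearest to ICAM1 were LAMB1, FLVCR2, FZD5, MYO5B and OCLN, at distances of 0.01 to 0.06 on the log2 scale. For ICAM2 they were FNBP1L, TCIRG1, CEBPB, GRN and SNTB1, at 0.04 to 0.07. For VCAM1 they were SH3KBP1, HMGN1, CDH11, FKBP3 and SNRPN, at 0.02 to 0.06. Within a distance of 0.25 there were 76 genes around ICAM1, 63 around ICAM2 and 40 around VCAM1, so with 3 arrays many genes share each pattern. MADCAM1 was not above the floor on all arrays and was left out.

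**Figure D4:**
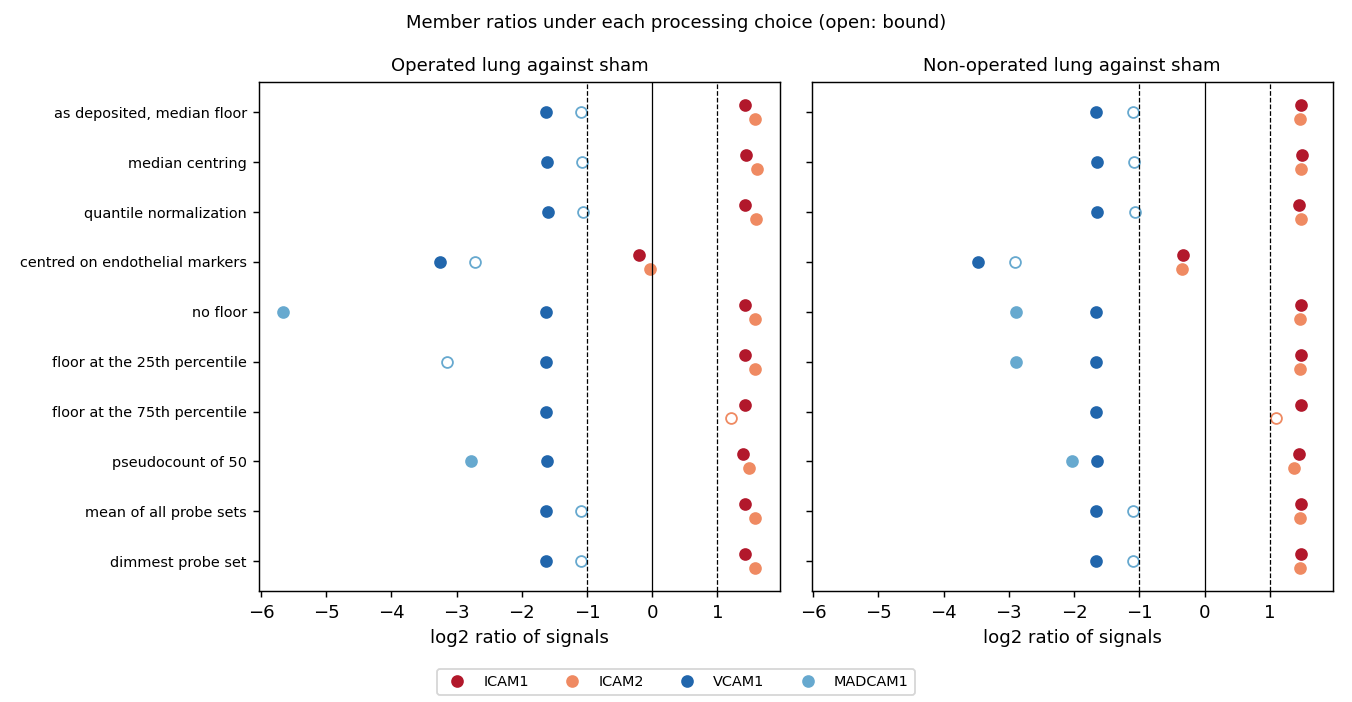
Log2 ratio of signals (horizontal axis) of each member against sham under the values as deposited and 9 other processing choices, for the operated lung and the non-operated lung, with open points for bounds and dashed lines at 2-fold. VCAM1 stays at or below -1.60 throughout, and ICAM1 and ICAM2 lie beyond 2-fold on the higher side except when arrays are centred on the median level of endothelial markers, which moves all genes alike.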

How the data were processed

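Lung RNA of 3 minipig groups, 1 array each, was measured on an Affymetrix porcine array. Extraction used TRIZOL and labelling a 3' IVT kit, per the labels' protocols. The deposited values are on the log2 scale, as their range shows, and per the submitters' processing notes come from MAS5, which scales each array separately; the sources used here give neither its version nor its scaling target. Linear signals are powers of 2 of these values, and their means after trimming 2% from each end were 496.2 to 497.1, so no scaling was added.

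The table holds 23999 probe sets; 64 reporter controls were left out. Of 23935, 10069 had 1 gene symbol, 198 several and 13668 none. All 4 members matched the RefSeq table of Sscrofa11.1 by gene identifier. The brightest probe set stood for a gene. The floor was each array's median, and a gene was counted when above it on at least 1 of the 2 arrays. With 1 array per group no test was made. The counting was tested on simulated data in which only genes far above the floor were changed. That simulation does not cover signals nearer the floor, such as ICAM2 and MADCAM1 in sham. Python 3.11.15, pandas 2.3.3 and numpy 2.4.6 were used. Alternatives covered scaling, floor, a pseudocount of 50 and the probe set choice.

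The members and the 16 gene lists were chosen with earlier results of these data known. Beside the members, the genes named are up to 4 per list whose ratios were largest and at least 2-fold, with all above-floor probe sets on the same side, the integrin partners, the selectins, NFKBIA and TNFAIP3, the 5 nearest genes of each member, and genes at or below the floor. FLNA and CD40 in the other lung, TNFRSF1A in the non-operated lung, CCL19 in the operated lung, SFTPC, SFTPB, NFKBIB, IKBKG, TNIP1, CCL21, PROX1, FLT4, CHST4 and GLYCAM1 were added after values were seen. So were PECAM1, ESAM, CD81, CR2, FDCSP, FCER2, TLN1, SFTPA1 and, in the operated lung, GNLY.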

Additional observations from a re-analysis of the deposited data

How the results depend on the processing

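With 1 array per group no array could be left out and no paired analysis was possible because no group has a second sample. Each alternative was set against the values as deposited. Median centring, quantile normalization, the mean of all probe sets and the dimmest probe set kept every member within 1.5-fold of its ratio and on its side of 2-fold, and the last 2 cannot move a member, since each has 1 probe set. Centring on endothelial markers turned ICAM1 to -0.20 and ICAM2 to -0.037 in the operated lung against sham, and to -0.33 and -0.34 in the non-operated lung, and took VCAM1 to -3.25 and -3.48 and the MADCAM1 bound to -2.72 and -2.90. By construction that choice moves every gene by the difference between arrays in the median marker level, and it left 26 genes higher and 4292 lower in the operated lung, 23 and 4506 in the non-operated lung, and 12 and 5 between the lungs. It also turned the list medians of endothelial markers to -0.094 and -0.25, of neutrophil genes to -0.039 in the operated lung, and of monocyte and macrophage markers to -0.14 and smooth muscle markers to -0.39 in the non-operated lung. Under the 8 other alternatives 26 of 251 list medians against sham crossed 2-fold or moved by over 1.5-fold, and 0 of those beyond 2-fold changed sign. Medians then lay between 0.39 and 1.11 for other adhesion molecules, 0.64 and 1.67 for smooth muscle, 0.57 and 1.60 for neutrophil genes, 1.07 and 2.02 for macrophage markers and -1.27 and -0.77 for T and NK markers in the operated lung, and between 0.17 and 1.05 for the NF-kB list in the non-operated lung. The MADCAM1 value for the operated and the non-operated lung was -5.66 and -2.89 without a floor, at most -3.14 and equal to -2.89 when the floor was the 25th percentile, and -2.78 and -2.02 with a pseudocount of 50. At a floor on the 75th percentile MADCAM1 gave no value, since all 3 signals lay below it. VCAM1 lay between -3.25 and -1.60 for the operated lung, and between -3.48 and -1.65 for the non-operated lung. Genes higher and lower without a floor numbered 744 and 877 in the operated lung, 814 and 848 in the non-operated lung, and 231 and 319 between the lungs. At the 75th percentile these were 230 and 197, 245 and 194, and 1 and 4. Between the lungs, 47 were higher and 63 lower at the 25th percentile, 21 and 27 with the pseudocount, 6 higher with the mean of all probe sets and 5 with the dimmest. Signals near the floor, MADCAM1 above all, are limited by signal over background, and no alternative stands in for a second animal.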

Other observations

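The MADCAM1 probe set gave 6.72 units in the operated lung and 45.7 in the non-operated lung, a log2 difference of -2.77 between values that both lie below the floor. Of 11453 probe sets below the floor on both the operated and the non-operated array, 929, or 8.11%, differed by at least as much. The median size of the difference was 0.59 among these dim probe sets and 0.16 among those above the floor on both arrays. Above the floor in sham but on neither the operated nor the non-operated array were 810 probe sets, MADCAM1 among them. In 193 of these the sham signal was at least 2-fold above its floor.

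Probe sets of the inflammatory cytokine IL1B, which raises ICAM1 and VCAM1 in human endothelium, gave opposite directions. The brighter had log2 signals of 8.11 in the operated lung, 8.23 in the non-operated lung and 8.37 in sham, and the dimmer 7.46, 7.09 and 6.13 in the same order, above the floor in the operated lung alone. TNF had 7.52 in the operated lung, 7.56 in the non-operated lung and 7.81 in sham, close to the floor on each array. These genes were chosen after their values were seen.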
